A study of Homo sapiens with 6 samples.

Results

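BRD2 and 8 genes of antigen presentation (HLA-DMA, HLA-DRA, CIITA, HLA-B, HLA-C, HLA-E, B2M and TAP1) are described here by the SMARCA4 ChIP-seq peaks found at them in K562 cells. They are 9 of 20098 protein-coding genes on chromosomes 1 to 22 and X. The genes were chosen by the peaks themselves, above all by the very wide peak over the BRD2 start, which also reaches annotated HLA-DMA transcripts, so their peaks are given as a description and no test was made on them. A peak was counted for a gene when it shared at least 1 bp with the gene, over all its annotated transcripts, or with the 5 kb on each side. By this rule 7 of the 9 genes held a peak, and these genes held 10 of the 28265 peaks of the list. For comparison, 12001 coding genes held a peak by the same rule, which is 59.7% (95% Wilson confidence interval 59.0 to 60.4%). Because the genes were chosen with the peaks known, nothing is read from the members' count beside this share.

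K562 is an established human cell line from a chronic myelogenous leukaemia, with erythroid character, and SMARCA4 is an ATPase subunit of the SWI/SNF chromatin remodelling complex. The study asked where SMARCA4 sits on chromatin relative to G-quadruplexes (G4s), folded structures that can form in G-rich DNA. There were 3 SMARCA4 ChIP libraries and 3 input libraries, all from K562 cells fixed for 30 min in disuccinimidyl glutarate (2 mM) and for a further 10 min in formaldehyde (1%), with chromatin sheared to fragments of 150 to 400 bp. The replicates are described as technical in the deposited labels and as biological in the study's text, and the peak list pools them, so no spread between replicates can be given for a value drawn from the list. A peak has a start and an end on hg19 but no height, and the list does not carry the depth of the libraries.

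The label K562 was compared with marker genes. The erythroid markers GATA1, TAL1, KLF1, LMO2, TFRC, HBG1, HBG2 and EPOR each had a peak within 1 kb of the canonical start. None of the 4 B lymphoid, 3 T lymphoid and 3 dendritic cell or monocyte markers had a peak at the start, although CD79A, PAX5, CD2 and CD14 each had 1 elsewhere in the window.

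MHC class I molecules are present on most nucleated cells and show peptides from inside the cell to CD8 T cells. They consist of a heavy chain such as HLA-B, HLA-C or HLA-E and the light chain B2M, and the TAP1-TAP2 transporter brings their peptides into the endoplasmic reticulum. MHC class II molecules such as HLA-DR are made mainly by antigen-presenting cells under the control of the coactivator CIITA, and HLA-DM, of which HLA-DMA is the alpha chain, loads their peptides. BRD2 is a BET protein that binds acetylated histones. Its gene lies among the class II genes but encodes neither a chain nor a loading factor of MHC molecules. K562 cells are known for low or absent surface HLA, and expression was not analysed here.

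The sequences just before the starts of 6 of the genes show what was and was not under a peak. Each is the longest stretch free of annotated exons within the 150 bases before the canonical start, on the strand of the gene (hg19). The HLA-B start had no such stretch. Capitals mark every match to the searched motifs: CCAAT, the SP/KLF motif GGGCGG and the interferon response motif GAAANNGAA (ISRE). Both strands were searched, so CCAAT also appears as ATTGG. Of all coding genes' windows from 250 bases before to 50 after the start, 35.9% hold CCAAT, 61.0% GGGCGG and 7.06% the ISRE letters.
BRD2, chr6:32936222-32936370, plus strand: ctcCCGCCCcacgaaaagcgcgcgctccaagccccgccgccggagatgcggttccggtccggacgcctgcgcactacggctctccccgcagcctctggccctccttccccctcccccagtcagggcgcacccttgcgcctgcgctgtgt
HLA-DMA, chr6:32920900-32921024, minus strand: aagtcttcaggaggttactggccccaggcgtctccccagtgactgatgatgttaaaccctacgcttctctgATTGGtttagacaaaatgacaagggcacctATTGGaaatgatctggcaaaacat
HLA-C, chr6:31239908-31240016, minus strand: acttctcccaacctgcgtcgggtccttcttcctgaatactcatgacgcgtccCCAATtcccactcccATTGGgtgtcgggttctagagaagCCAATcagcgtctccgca
HLA-E, chr6:30457136-30457285, plus strand: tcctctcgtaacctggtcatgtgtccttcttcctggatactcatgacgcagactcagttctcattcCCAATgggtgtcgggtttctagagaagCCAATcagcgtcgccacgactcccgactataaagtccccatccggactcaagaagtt
B2M, chr15:45003639-45003684, plus strand: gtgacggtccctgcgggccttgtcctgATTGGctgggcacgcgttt
TAP1, chr6:32821594-32821631, minus strand: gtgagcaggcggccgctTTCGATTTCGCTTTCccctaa
All 149 bases shown for BRD2 lay inside a peak, as did the first 37 of the 150 bases of HLA-E and the first 19 of the 38 bases of TAP1. The CCAAT motifs marked for HLA-E lay outside its peak, and no ISRE match marked for TAP1 lay wholly inside a peak. The B2M stretch lay just before a peak, with 0 of its 46 bases inside, and the stretches of HLA-DMA and HLA-C were far from any peak.

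The BRD2 start carried by far the most extended peak among these genes. It spanned chr6:32935204-32941173, a width of 5970 bp, which is 16.2 times the median of 368 bp over all peaks. It began 1167 bp before the canonical BRD2 start and ended 4802 bp after it, so that 80.5% of the peak lay inside the gene and 37.2% of the canonical transcript span was covered. Exon 1, intron 1, exon 2 and the first part of intron 2 were under the peak, and canonical exons made up 30.1% of its bases. Of the 22 annotated BRD2 starts, 19 fell inside. The peak also held 2 short lncRNA genes. A second, narrow peak of 210 bp (chr6:32941268-32941477) followed after a gap of 94 bp, within intron 2.

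The position of the wide peak differed between the 2 genes that share it. HLA-DMA is read in the opposite direction, and its canonical start lies 15.5 kb from that of BRD2. The nearest edge of the peak was 14.3 kb upstream of the canonical HLA-DMA start, and no peak lay within 1 kb of that start. HLA-DMA owes its peaks to 2 of its 9 annotated transcripts, which begin under the wide peak and make the spans of the genes overlap by 501 bp. With the canonical transcript as the span, HLA-DMA held no peak.

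**Figure D1:**
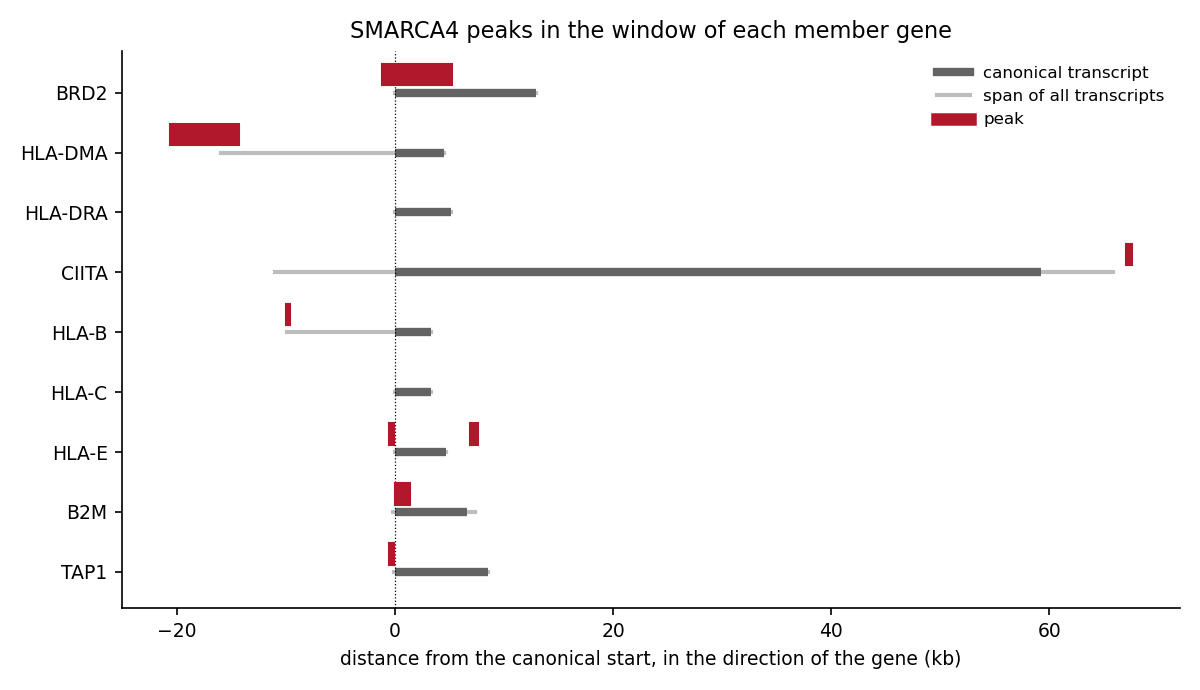
SMARCA4 peaks (red) in the window of each of the 9 genes, by distance in kb from the canonical start in the direction of the gene; the dark bar is the canonical transcript and the light bar the span of all transcripts. Peaks lie at the start of BRD2, HLA-E, B2M and TAP1, away from it in HLA-DMA, HLA-B and CIITA, and nowhere in HLA-DRA and HLA-C. Very narrow peaks are drawn at a minimum width.

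By width the BRD2 peak ranked 2 of 28265. Only 1 peak was wider, with 10019 bp, and it lay over the lncRNA gene NEAT1 (named after its position was seen), 32.0 kb from the nearest canonical coding start, that of FRMD8. The next narrower peaks had 4960 bp at FTL, the ferritin light chain gene, 4895 bp at PPP1R15A, a stress-induced phosphatase subunit gene, and 4443 bp at the AP-1 gene JUND. All 3 covered the canonical start of their gene. Among the 6915 coding genes whose canonical start lay inside a peak, the median width of that peak was 572 bp, and the BRD2 peak was the widest. In the whole list 143 peaks had 2000 bp or more.

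**Figure D2:**
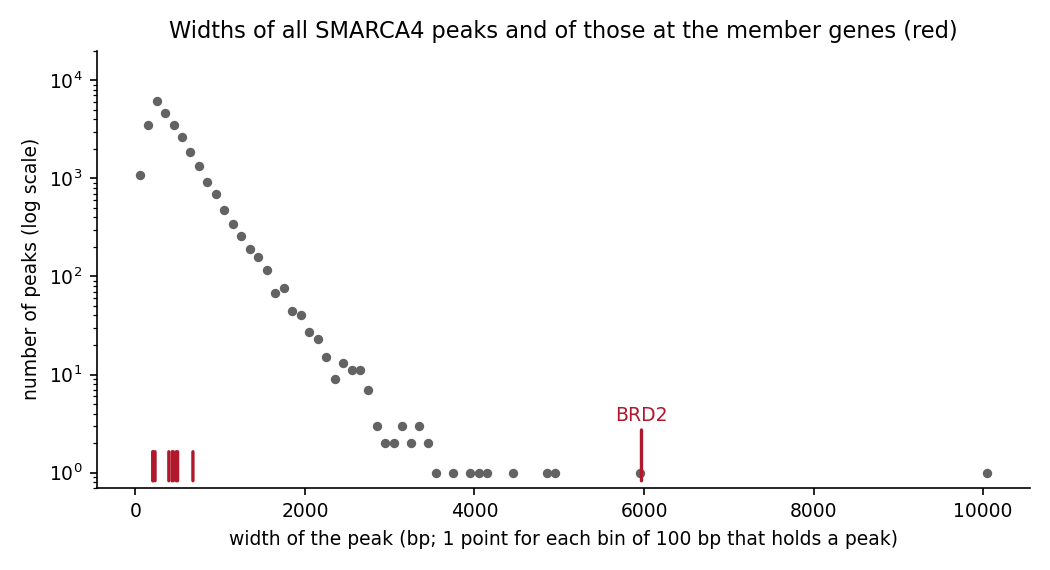
Number of peaks (log scale) in bins of 100 bp of width, with red marks at the widths of the 10 peaks of the member genes. The BRD2 peak of 5970 bp stands apart from the other 9, which had 205 to 679 bp.

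The sequence under the BRD2 peak was G- and C-rich, with 59.2% GC and an observed to expected CpG ratio of 0.652. The GC content was 54.2% before the start, 59.4% from the start to exon 2, and 62.0% from exon 2 to the end of the peak. G4 motifs were searched as 4 guanine runs, each of 3 or more bases, joined by loops of 1 to 7 bases, and both strands were read. The peak held 9 of them, or 1.51 per kb, against 0.889 per kb over all peaks. With loops of up to 12 bases it held 14, or 2.35 per kb, against 1.67 per kb over all peaks, a rate computed after the data had been seen. Of the 9 motifs none lay before the start, 8 lay between the start and exon 2 and 1 in exon 2. In the list 25 peaks held at least 9 motifs, and the most in any peak was 13. The peaks nearest in width held 8 motifs at NEAT1 (10019 bp), 3 at FTL (4960 bp), 2 at PPP1R15A (4895 bp) and 8 at JUND (4443 bp). No rate was computed for peaks of similar GC content. A motif is a sequence that can fold, and folding was not measured here. Of the 9 motifs, 2 overlap no annotated exon and are printed here with their guanine runs in capitals.
BRD2 intron 1, chr6:32936888-32936915, plus strand: GGGGagtccGGGaGGGGGattcttGGGG
BRD2 intron 1, chr6:32937969-32937995, plus strand: GGGaggttGGGccgctaGGGGGaGGGG

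Other short motifs in the BRD2 peak were counted per kb in the same way. CCAAT was found 12 times (2.01 per kb, against 1.16 over all peaks) and GGGCGG 10 times (1.68 against 2.78). The GATA motif (AGATAA or TGATAA) occurred 4 times, or 0.670 per kb, below the 1.59 of all peaks, and 3 of the 4 lay before the start. The AP-1 motif TGACTCA occurred once (0.168 against 0.449 per kb). A match is a description of the letters and says nothing about binding by these factors.

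**Figure D3:**
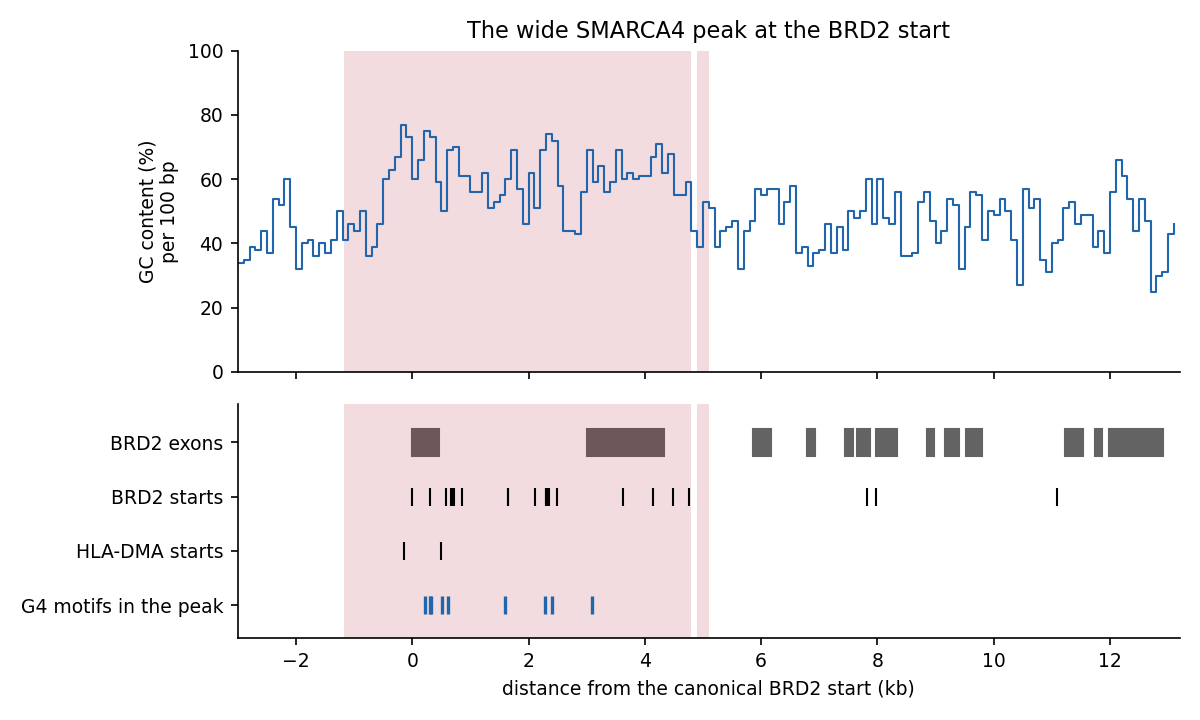
GC content in bins of 100 bp (top) and the canonical BRD2 exons, annotated starts of BRD2 and HLA-DMA and the G4 motifs in the wide peak (bottom), by distance from the canonical BRD2 start in kb; shading marks the 2 peaks. The wide peak holds 19 of 22 BRD2 starts, 2 HLA-DMA starts and all 9 motifs drawn.

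BRD3 and BRDT are BET genes related to BRD2. The BRD3 start was covered by a peak of 230 bp (80.0% GC, no G4 motif). The BRD3 window also held a peak of 287 bp before the start, without a G4 motif, and one of 382 bp further downstream, with 2. BRDT, the testis member of the family, had no peak, and the nearest one was 63.1 kb from its start. The BRD2 peak was wider than any in the windows of these genes.

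The class I light chain gene B2M had the most peaks of the 9 genes as the list divides them. With peaks at most 500 bp apart merged, those of B2M count as 1, and B2M no longer has the most. Its 3 peaks lay close together within the first part of the gene: chr15:45003747-45004194 (448 bp), chr15:45004370-45004574 (205 bp) and chr15:45004589-45005086 (498 bp). The first began 32 bp after the canonical start, had 67.0% GC and held 1 G4 motif. The other 2 lay in intron 1 with 39.5% and 49.4% GC, and each held 1 GATA motif. PATL2, a neighbour named after the values were seen, shared all 3 peaks. The promoter window of B2M, from 250 bases before to 50 after the start, held 2 ISRE motifs and 1 motif of the letters GGGNNTTCC (NF-kB), which 7.31% of all coding promoter windows hold.

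HLA-E, a class I heavy chain gene of low polymorphism whose product NK cells recognise, had peaks on both sides. One of 395 bp (chr6:30456778-30457172) ended 114 bp before the canonical start, and one of 679 bp (chr6:30464191-30464869) lay 2.22 kb past the end of the gene. The downstream peak had a low CpG ratio of 0.0791 and held 1 GATA, 1 AP-1 and 1 NF-kB motif, whereas the upstream peak held none of these.

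HLA-B, a classical class I heavy chain gene, had 1 peak of 232 bp (chr6:31334728-31334959), 9.77 kb upstream of its canonical start. This peak overlapped the first exons of long annotated HLA-B transcripts and a processed pseudogene, DHFRP2. HLA-C, the classical gene next to it, had no peak, and the nearest one was 73.6 kb from its start. The printed stretches of HLA-C and HLA-E share a run of 23 bases that includes CCAAT, starting 67 and 68 bases before their starts, so these letters occur at a start with a peak nearby and at a start without one.

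Over the class I chains, 3 of 7 held a peak in the window, beside 59.7% of all coding genes, and 2 of 7 (HLA-E and B2M) within 1 kb of the canonical start. HLA-C, HLA-F and HLA-G held none, with the nearest peaks 73.6, 29.5 and 74.5 kb from their starts. Of all coding genes, 8905 or 44.3% (95% Wilson interval 43.6 to 45.0%) had a peak within 1 kb of the canonical start. This share differed with the CpG content of the start. It was 61.7% of 12951 genes with CpG-rich starts (observed to expected CpG of at least 0.6 and GC of at least 50% within 500 bp on either side) and 12.7% of 7147 other genes. All 7 class I chain genes had CpG-rich starts, so the 5 without a peak at the start belong to the class in which a peak is frequent. All 7 also held CCAAT in the promoter window, as did 12 of the 13 class II chain genes and 35.9% of all coding genes.

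The class II chain HLA-DRA, the alpha chain of HLA-DR, had its start furthest from any peak among the 9 genes. No peak lay in its window, and the nearest was 151 kb away, upstream of the gene. Its start was not CpG-rich, with 41.1% GC and a CpG ratio of 0.239.

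Of the 13 class II chain genes only HLA-DMA held a peak, through the wide peak at BRD2, and none had 1 within 1 kb of the canonical start. Over all coding genes the shares were 59.7% and 44.3%. None of the 13 had a CpG-rich start, and of all coding genes without one 12.7% had a peak at the start. The X-Y pair of class II promoters (GCAAC, then ATTGG on the same strand after 22 to 34 bases) was in the promoter windows of 4 of the 13, and in 0.498% of all coding promoter windows (100 of 20098). The HLA-DMA window holds ATTGG 2 times but not the pair in these letters. The share also differed between length classes. Among the 5025 coding genes with the shortest spans, up to 9.50 kb, 44.2% (interval 42.9 to 45.6%) had a peak in the window and 32.6% at the start, and in the next longer classes 62.5%, 67.1% and 65.1% had one in the window. What else differs between these classes was not tested. HLA-DRA, HLA-C, HLA-E, B2M and TAP1 are in this length class.

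The BRD2 peak was set against the whole class II stretch of 650 kb from HLA-DRA to HLA-DPB1. Along the chromosome the coding genes are HLA-DRA, HLA-DRB5, HLA-DRB1, HLA-DQA1, HLA-DQB1, HLA-DQA2, HLA-DQB2, HLA-DOB, TAP2, PSMB8, TAP1, PSMB9, HLA-DMB, HLA-DMA, BRD2, HLA-DOA, HLA-DPB1 and HLA-DPA1, with 2 more that carry no symbol and overlap them. The stretch held 5 peaks, and the wide peak made up 84.0% of the 7104 bp they covered. Peaks covered 1.09% of the stretch and 0.615% of chromosome 6. By number the order was reversed, with 0.769 peaks per 100 kb in the stretch and 1.18 per 100 kb on chromosome 6. Without the wide peak, which was chosen for its width, 0.175% of the stretch was covered, and this value has no counterpart on the chromosome with its widest peaks left out. Long intervals between peaks held the class II starts, the first beginning before the stretch and the last ending past it. One of 321 kb held the starts of HLA-DRA, HLA-DRB5 and HLA-DRB1, one of 228 kb those of HLA-DQA1, HLA-DQB1, HLA-DQA2, HLA-DQB2 and HLA-DOB, one of 113 kb those of HLA-DMB and HLA-DMA, and one of 224 kb those of HLA-DOA, HLA-DPB1 and HLA-DPA1. The median distance between neighbouring peaks of the list was 16.3 kb. Of all such distances, 94.1%, 92.0%, 85.2% and 91.8% were shorter than these intervals, in the order given.

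**Figure D4:**
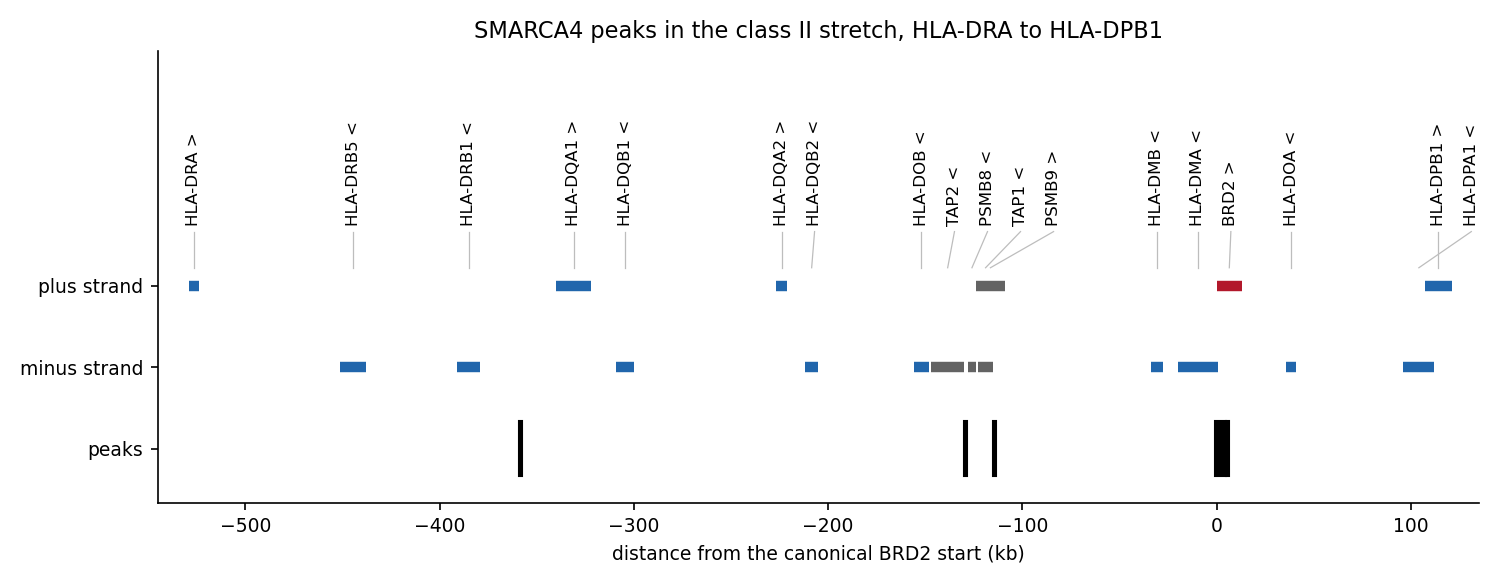
Coding genes on each strand (class II and other HLA genes in blue, BRD2 in red, others in grey; > and < give the direction) and SMARCA4 peaks (black) from HLA-DRA to HLA-DPB1, by distance from the canonical BRD2 start in kb. Apart from 1 peak between HLA-DRB1 and HLA-DQA1, the peaks sit at TAP2, at TAP1 and PSMB9, and at BRD2; narrow peaks are drawn at a minimum width.

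TAP1, which encodes a subunit of the peptide transporter, lies inside this stretch and had 1 peak in its window, just before the gene. The peak (chr6:32821613-32822046, 434 bp, 64.7% GC) began 132 bp before the canonical TAP1 start and covered the start of PSMB9, an immunoproteasome subunit gene read in the opposite direction, so that the peak is shared. It held 3 GGGCGG motifs, 1 CCAAT and 1 GATA motif. The TAP1 promoter window held 2 ISRE motifs, which overlap in the stretch printed above, and 1 G4 motif. The partner gene TAP2 had a peak of 289 bp over its start, and PSMB8 shared that peak. The same peak was the nearest one outside the window of TAP1, at 6.27 kb from the gene.

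Of the 14 genes of class I peptide loading, 13 held a peak and 11 held one within 1 kb of the canonical start, beside 59.7% and 44.3% of all coding genes. CpG-rich starts were found in 9 of the 14. Of all coding genes, 61.7% of those with such starts and 12.7% of the others held a peak there. The widest peaks of the 14 genes were in CALR (1710 bp) and CANX (1464 bp), endoplasmic reticulum chaperones that also serve many other proteins, in TAPBP (1245 bp), which encodes tapasin, and in TAPBPL (630 bp). ERAP2, a peptide-trimming protease gene, had none. Within the class II stretch the loading genes TAP1, TAP2, PSMB8 and PSMB9 had peaks in their windows while the class II chain genes other than HLA-DMA had none.

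CIITA, the coactivator of class II genes, had 1 peak in its window, but not at any of its starts. The peak (chr16:11038121-11038603, 483 bp, 67.9% GC) lay 1.24 kb past the end of the gene, 67.1 kb downstream of the canonical start, and covered the start of the neighbouring gene CLEC16A (named after its position was seen). The closest annotated CIITA start was 3545 bp from it, that of a short transcript at the end of the gene. The canonical start of CIITA was not CpG-rich, with a CpG ratio of 0.252. With the canonical transcript as the span, CIITA held no peak.

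The other class II loading genes and regulators differed among themselves. Subunits of the DNA-binding factors had the widest peaks, all at the start: NFYC (1596 bp), NFYA (1130 bp) and NFYB (369 bp) of the CCAAT-binding factor, and RFXANK (994 bp) of the X-box factor RFX. CD74, the invariant chain, CTSS and IFI30, which process antigen in endosomes, had none, nor did the RFX subunit gene RFXAP, whose nearest peak was 180 kb away. In all, 7 of the 11 genes (63.6%) held a peak, and 6 of 11 (54.5%) at the start, near the 59.7% and 44.3% of all coding genes. Among 12 regulators of the interferon response, which raises class I and class II expression, 11 held a peak (91.7%, beside the same 59.7%). Of these 12 genes 11 had CpG-rich starts, and 10 held a peak within 1 kb of the start. Of all coding genes with CpG-rich starts, 61.7% held one there. The widest peaks were in IRF1 (1588 bp), SOCS1 (1357 bp), JAK2 (1138 bp) and IFNGR2 (917 bp). IRF8, a factor of myeloid and B cells, had none.

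**Figure D5:**
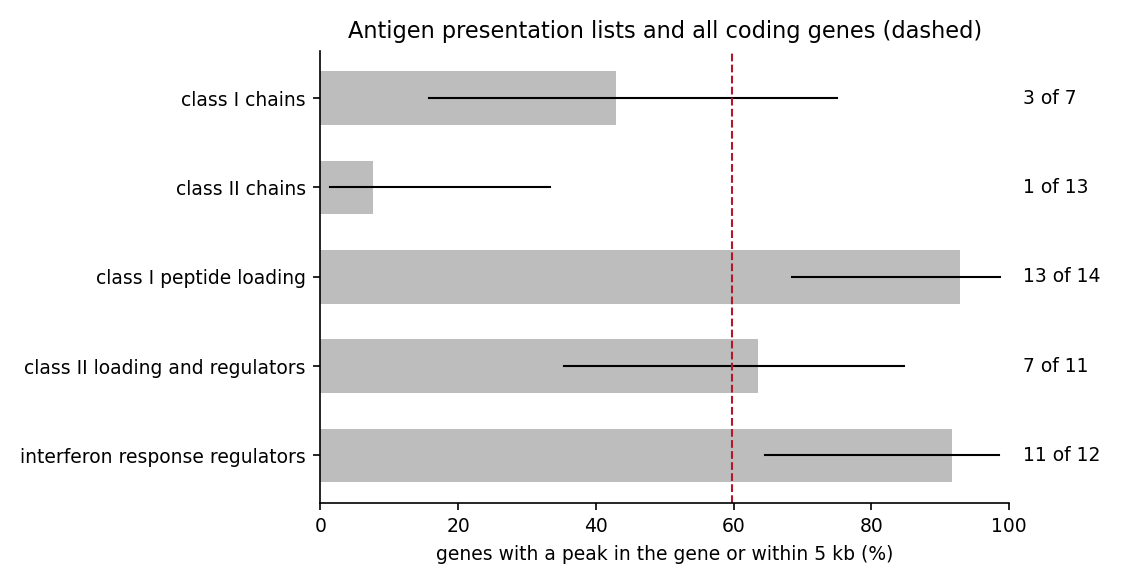
Share of the genes of each list with a peak in the gene or within 5 kb (bars, in %), with 95% Wilson intervals (lines, counting error only) and counts at the right; the dashed line is the 59.7% of all coding genes. The class II chains had the lowest share, 1 of 13, and class I peptide loading the highest, 13 of 14.

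The rule's flank decides some of these counts. The peaks farthest from a gene yet inside the 5 kb were the narrow BRD2 peak, 4397 bp from HLA-DMA, and the downstream HLA-E peak. Just outside were a peak of 807 bp at 5391 bp past the end of B2M and the TAP2 peak at 6271 bp from TAP1. With the canonical transcript as the span, 4 of 9 genes held a peak (BRD2, HLA-E, B2M and TAP1), beside 57.8% of all coding genes. The same 4 had a peak within 1 kb of the canonical start, beside 44.3% of all coding genes. Only the canonical start of BRD2 lay inside one.

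Whether reads can be placed in these polymorphic and duplicated genes was measured on the reference. Reads of 75 bases, cut every 25 bases from the reference and aligned back to it, mapped uniquely in 94.7% of cases in the HLA-DRA window and 98.1% in the HLA-C window. Over the 9 genes the share ran from 92.8% at HLA-E to 98.8% at HLA-B. Lower shares were found at other chain genes, with 90.2% at HLA-F and 91.2% at HLA-DQA1. Within 1 kb of the canonical start 96.1% of the HLA-DRA reads and 98.7% of the HLA-C reads were unique, and under the BRD2 peak all 235 were. The part of read placement in the presence or absence of a peak was not tested, nor was that of K562 alleles that differ from the reference.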

How the data were processed

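SMARCA4 ChIP-seq and input libraries of K562 cells were processed by the authors with cutadapt, BWA, Picard and SAMtools on hg19, and peaks were called with MACS2 in each replicate. Regions found in at least 2 replicates were kept with bedtools. The deposited list has 3 columns (chromosome, start and end in bp) and no score or count, so depth and replicate spread are unknown from it. All 28265 regions lay within the chromosome lengths of the hg19 sequence used here. Positions are counted from 1.

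Genes came from the GENCODE annotation lifted to the same build (254413 transcripts). The canonical start is that of the transcript tagged canonical, or else, for 280 coding genes, of that with the longest coding sequence. Analyses used Python 3.11.15, pysam 0.24.0, statsmodels 0.14.6 and matplotlib 3.10.9. Read placement used minimap2 2.31-r1302 (short-read preset, mapping quality of at least 10). Wilson intervals (95%) cover counting error only. Interval arithmetic and motif search were tested on simulated data.

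Members and gene lists were chosen with earlier results of these data known. Besides the 9 members, the rule named up to 4 genes per list by widest peak, all genes without a peak where 5 or fewer lacked one, the genes nearest to the 3 peaks next wider (only 1 exists) and next narrower than that of BRD2, and the class II neighbours. Genes of this rule that are not named, and 1 promoter sequence, are not reported here. Alternatives changed the flank, gene span, peak set, overlap rule, background, motif loops and mapping quality.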

Additional observations from a re-analysis of the deposited data

How the results depend on the processing

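No paired analysis was possible because the list pools the replicates and holds no value per replicate, and for the same reason no replicate could be left out in turn. The list has no score, so a stricter threshold could be tried only through width. Over 104 alternatives, 71 values stayed within 1.5 times the first count or within its 95% interval, and 33 did not. Without a flank, 4 members held a peak in place of 7, beside 52.7% of all coding genes. The windows then held 6 peaks in place of 10, and HLA-E, TAP1 and CIITA lost theirs. With the span of 1 canonical transcript, 4 members and 0 class II chains held a peak, beside 57.8% of all coding genes.

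The share of coding genes with a peak in the window (59.7%) was 52.7% without a flank, 55.9% with 1 kb, 63.2% with 10 kb, 56.8% with peaks of at least 200 bp, 57.8% with canonical spans, 60.9% on autosomes and 31.6% over all annotated genes. The share with a peak near the canonical start (44.3%) was 43.1% within 500 bp, 45.7% within 2 kb, 46.8% at any coding start, 41.4% with peaks of at least 200 bp and 45.3% on autosomes. With loops of up to 12 bases the BRD2 peak held 14 G4 motifs. When peaks at most 500 bp apart were merged, its width was 6274 bp and its rank 3.

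With mapping quality 1 as the minimum, the unique share was 99.3% for BRD2, 98.8% for HLA-DMA, 98.0% for HLA-DRA, 99.0% for CIITA, 99.5% for HLA-B, 99.6% for HLA-C, 96.2% for HLA-E, 98.7% for B2M and 99.7% for TAP1. With 30 as the minimum it was 97.0% for BRD2, 92.5% for HLA-DRA, 94.7% for CIITA, 96.9% for HLA-B, 96.4% for HLA-C, 86.3% for HLA-E and 94.3% for B2M, while HLA-DMA and TAP1 stayed within their intervals. The cause of these shifts was not tested.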

Other observations

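Beyond HLA-DPB1 the peaks resumed at 229 kb from the canonical BRD2 start, in RXRB, with 2 peaks of 295 and 1611 bp, followed by peaks at HSD17B8, RING1, RPS18 and B3GALT4 (genes named after their values were seen). The 1611-bp peak covered the RXRB start. The peak between HLA-DRB1 and HLA-DQA1 (chr6:32577764-32577964, 201 bp, 45.8% GC) overlapped no annotated gene and lay 20.1 kb from the HLA-DRB1 start. NLRC5, known as the class I counterpart of CIITA, was like CIITA in having 1 peak in its window (205 bp) and none at the canonical start, 24.6 kb away, although the NLRC5 start was CpG-rich.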
